A study of Canis lupus familiaris with 12 samples.

Results

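The miRNA profile of the dog right atrium was taken from small RNA libraries of 3 control dogs and 3 dogs under rapid right atrial pacing. The members are the known mature miRNAs of the tag count table, each counted once although 26 of them are listed for more than 1 precursor, and they number 224 of the 350 miRNAs in that table. The remaining 126 are sequences that the authors predicted, and 99.5 to 99.9% of the tags of a library belonged to known miRNAs.

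The animals were mongrel dogs of either sex, and their age is not given in the sources used here. Pacing dogs were stimulated for 14 days, and control dogs had the same operation and carried a pacemaker that did not stimulate, so surgery and device are shared by both groups. Each small RNA library is taken as 1 dog, 3 per group, although the labels do not name the animals, and p-values measure the spread between these libraries only. Of the columns, 3 begin with C (C1, C2 and C4) and 3 with P (P1, P2 and P3), but among the sample titles the name C4 belongs to a pacing dog. Columns were grouped by their letter, so C4 counts as a control here, and this is uncertain. A fit with C4 counted as pacing is described with the alternatives in processing.

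Mature miRNAs are RNAs of about 22 bases that guide Argonaute proteins to mRNAs, mostly by pairing of bases 2 to 8, the seed, with the target. miRNAs with the same seed can share targets and are grouped into families. Heart muscle is known for miR-1, miR-133a and miR-499, smooth muscle for miR-143 and miR-145, and endothelium for miR-126. In fibrosing hearts of other species miR-21 and the miR-29 family are among the most studied, miR-29 as a repressor of collagen mRNAs.

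The sequences of the table were 19 to 24 bases long, with a median of 22. Those that carry the results are printed 5′ to 3′ with the seed (bases 2 to 8) in capitals. The first set gives the 4 most abundant miRNAs.
miR-148a: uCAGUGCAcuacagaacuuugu
let-7f: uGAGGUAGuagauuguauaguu
miR-143: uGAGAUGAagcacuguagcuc
miR-1: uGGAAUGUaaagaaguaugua
The second set gives miRNAs that were higher in the pacing libraries, with all 3 members of the miR-29 seed family.
miR-21: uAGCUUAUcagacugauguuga
miR-29a: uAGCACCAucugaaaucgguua
miR-29b: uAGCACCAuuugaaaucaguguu
miR-29c: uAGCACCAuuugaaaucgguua
The third set gives miRNAs that were lower in the pacing libraries or that set 1 control library apart, where miR-206 has the seed of miR-1.
miR-31: aGGCAAGAugcuggcauagcugu
miR-7: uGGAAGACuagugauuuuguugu
miR-433: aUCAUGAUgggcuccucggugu
miR-127: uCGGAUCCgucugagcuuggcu
miR-206: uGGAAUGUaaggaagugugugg
The last set gives the miRNAs of the myosin genes, of which miR-208a and miR-208b share a seed and differ at 3 positions.
miR-208a: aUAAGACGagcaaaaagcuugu
miR-208b: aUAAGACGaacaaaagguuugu
miR-499: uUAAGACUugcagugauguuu

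The libraries held 1049614 (C1), 1805467 (C2), 1187625 (C4), 1712375 (P1), 828600 (P2) and 1078011 (P3) tags of known miRNAs. Levels are given as CPM, counts per 1000000 known-miRNA tags of a library, so 1 tag was worth 0.554 to 1.21 CPM. No count of 1 occurs in the table, so a blank, read here as 0, can also be a single tag. Of the 224 miRNAs 154 had tags in all 6 libraries and 16 in 1 library only, and between 168 (P2) and 211 (P1) were listed in a library.

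A few miRNAs filled the libraries. The 16 miRNAs with a mean of 10000 CPM or more took 89.7% of tags, and the 57 with a mean of 1 to 10 CPM took 0.0231%. The leading miRNA was miR-148a, the most abundant of a family that is broadly expressed, with 119634 (C1), 196477 (C2), 82348 (C4), 119572 (P1), 118455 (P2) and 73881 (P3) CPM. Its groups overlapped, with C2 highest and P3 lowest. It was followed by let-7f with a mean of 106064 CPM, miR-143 with 90146 and miR-1, the miRNA of heart and skeletal muscle, with 83462. Ranks 5 to 8 went to miR-99a (82326 CPM), miR-27b (79863 CPM), miR-26a (68577 CPM) and let-7g (65888 CPM).

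These 8 miRNAs were among the 10 most abundant of every library, and 13 miRNAs in all reached that rank in at least 1 library. The first place changed from library to library. It was held by miR-148a in C1 (11.96% of tags) and C2 (19.6%), let-7f in C4 (13.6%), miR-21 in P1 (13.2%), miR-1 in P2 (13.3%) and miR-143 in P3 (13.3%).

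**Figure D1:**
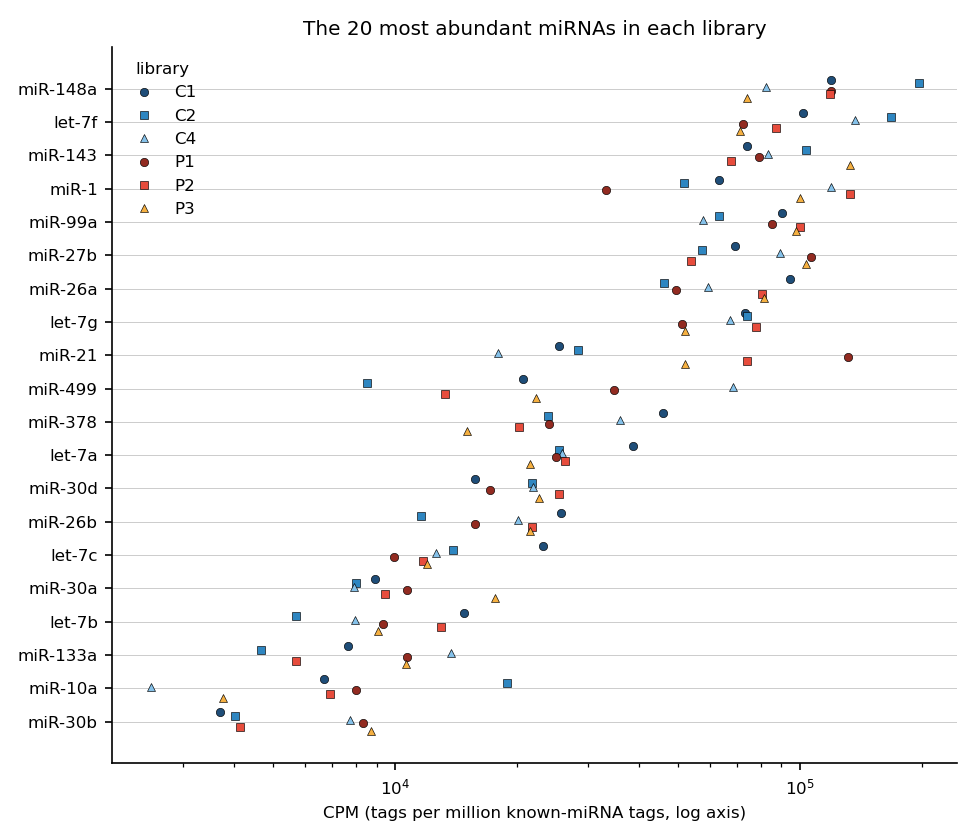
CPM (log axis) of the 20 most abundant miRNAs, 1 point per library, ordered by their mean. The pacing points of miR-21 (52125 to 131731 CPM) all lie above its control points (17918 to 28323 CPM), while miR-499 spans 8511 (C2) to 68355 (C4) CPM.

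The shape of the profile was compared between the groups by an exact permutation test over libraries (two-sided), which cannot go below p = 0.1 with 3 against 3. The 10 most abundant miRNAs took 79.4% ± 2.2 (SD, n = 3) of tags in the control group and 79.0% ± 2.8 (SD, n = 3) in the pacing group (exact p = 0.8). The Shannon index was 2.93 ± 0.11 (SD, n = 3) and 2.97 ± 0.10 (SD, n = 3) (exact p = 0.6), and 90% of tags were reached by 15 to 17 miRNAs in the control libraries and by 15 to 20 in the pacing libraries. The share of the most abundant miRNA was 15.1% ± 4.0 (SD, n = 3) and 13.3% ± 0.08 (SD, n = 3), with an exact p of 0.7. The libraries of the groups overlapped in all 4 measures, and leaving out C2 turned the sign of the first, second and last difference.

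Levels of the abundant miRNAs were not equally even over the libraries. Of the 82 miRNAs with a mean of 100 CPM or more, the coefficient of variation (CV, SD over mean of the 6 libraries) had a median of 42.6%. The lowest was that of miR-340 at 16.1%, with 2187 to 3260 CPM, followed by miR-125a (16.8%), miR-30d (17.5%), let-7g (17.6%), miR-423a (21.6%), miR-99a (21.8%) and let-7a (21.9%). The highest was that of miR-206, a miRNA of skeletal muscle, at 223%, followed by miR-7 (136%), miR-127 (115%), miR-184 (99.8%), miR-9 (88.9%) and miR-379 (88.1%). The 10 highest also held miR-21 (78.2%), miR-204 (78.1%) and miR-146b (81.0%).

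The libraries resembled each other to different degrees. Over the 140 miRNAs with a mean of 10 CPM or more, Pearson's r of log2(CPM + 1) was 0.957 to 0.975 among C1, P1, P2 and P3, against 0.913 to 0.938 for C2 and 0.912 to 0.942 for C4 with the other libraries. The 3 control libraries correlated at 0.928 to 0.942 with each other, and C1 correlated at 0.957 to 0.972 with the pacing libraries. These values describe miRNAs within libraries, which are not independent replicates. C2 and C4 are therefore described before the contrast that uses them.

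C4 differed from all other libraries in the miRNAs of the myosin genes. miR-208a, which lies inside MYH6 (the alpha-myosin heavy chain gene), had 82.9 (C1), 23.8 (C2), 169 (P1), 71.2 (P2) and 233 (P3) CPM and was listed with no tag in C4. miR-208b, which lies inside MYH7 (the beta-myosin heavy chain gene), had no tag in C1 and 1.66 (C2), 28.6 (C4), 19.9 (P1), 6.03 (P2) and 12.1 (P3) CPM, so C4 was highest, resting on 34 tags. P1 also had 34 tags of miR-208b, in a larger library. miR-499, which lies inside MYH7B, had 20650 (C1), 8511 (C2), 68355 (C4), 34828 (P1), 13280 (P2) and 22260 (P3) CPM. C4 thus held the highest level of miR-208b and miR-499 and the lowest of miR-208a.

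Other miRNAs also singled out C4. miR-31 had 156 CPM there and 0 to 11.4 CPM elsewhere, miR-9, best known from neurons, had 305 CPM against 51.4 to 112, and miR-34a, a target of p53, had 90.1 CPM against 14.4 to 46.7. miR-504 (420 CPM against 60.3 to 227) and miR-133a (13723 CPM against 4667 to 10703) were likewise highest in C4. Below all others in C4 were miR-204 (44.6 CPM against 233 to 845), miR-184 (15.2 CPM, with C2 at 23.3 and the rest at 378 to 1648), miR-10a, miR-145, miR-21 and miR-222.

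In the total RNA library of the same name, the mRNAs of ventricular muscle were high and those of atrial muscle low. MYL2, the ventricular regulatory myosin light chain, had 2331 FPKM in C4 and 2.28 to 108 FPKM elsewhere, and NPPA, the atrial natriuretic peptide precursor, had 7.78 FPKM in C4 and 1658 to 8496 FPKM elsewhere. In the mRNA data, 7 of 9 atrial markers listed were lowest in C4, where they summed to 170 FPKM against 4008 to 18273. Of 6 ventricular markers 5 were highest in C4 (8614 FPKM summed, against 397 to 1158), while the sum of 4 general cardiomyocyte markers, 5513 FPKM, lay within the 3512 to 6684 FPKM of the other libraries. The labels call every sample atrial, and these markers go against that for C4.

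**Figure D2:**
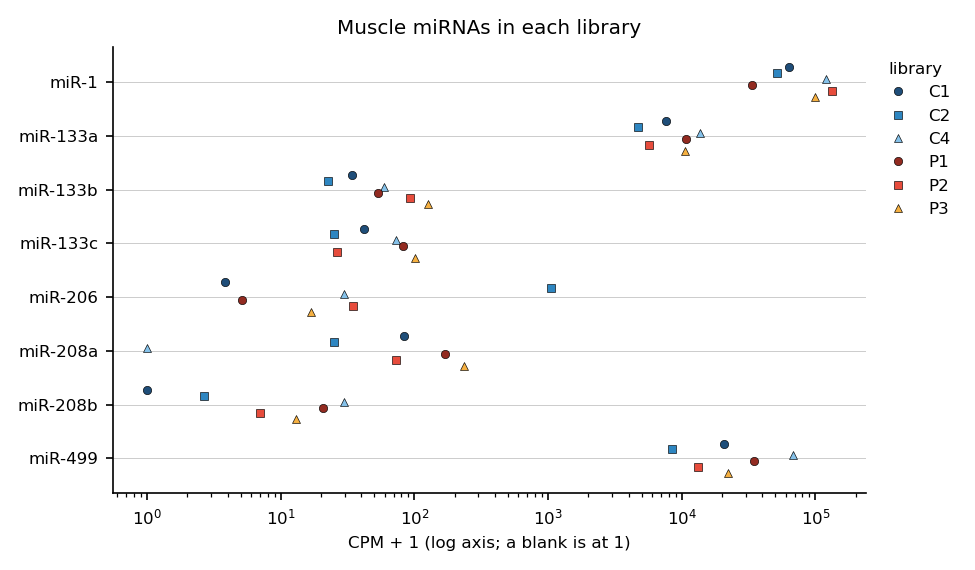
CPM + 1 (log axis) of the 8 muscle miRNAs, 1 point per library, with a blank drawn at 1. C4 has the highest miR-499 (68355 CPM) and no miR-208a tag, C1 has no miR-208b tag, and C2 stands alone at 1055 CPM of miR-206.

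The host genes are given beside their miRNAs. MYH7 had 137 (C1), 117 (C2), 2264 (C4), 247 (P1), 664 (P2) and 255 (P3) FPKM, so C4 was highest for MYH7 as it was for miR-208b. MYH7B had 22.4 (C1), 7.54 (C2), 17.98 (C4), 10.2 (P1), 10.95 (P2) and 23.1 (P3) FPKM, so C4 was not highest for the host of miR-499. EGFL7, the endothelial gene that holds miR-126, had 2.07 to 6.74 FPKM, while miR-126 itself had 181 to 1169 CPM. miR-126 is listed with the seed AUUAUUA, and no other known sequence of its precursor is listed. Its level here and its change below are those of that sequence only. Sequencing of fragments and of small RNA give no common scale, so these values stand side by side only.

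C2 differed from all other libraries in another group of miRNAs. miR-206 had 2.86 (C1), 1055 (C2), 28.6 (C4), 4.09 (P1), 33.8 (P2) and 15.8 (P3) CPM. miR-7, abundant in endocrine and neural cells, had 84.8 (C1), 1101 (C2), 381 (C4), 158 (P1), 49.5 (P2) and 38.0 (P3) CPM. miR-127, an imprinted miRNA of the DLK1-DIO3 locus, had 412 (C1), 4274 (C2), 668 (C4), 1140 (P1), 631 (P2) and 630 (P3) CPM. C2 was the top library for all 3, and of the 140 miRNAs with a mean of 10 CPM or more 10 were at least 2-fold above every other library in C2, against 0 to 3 in the other libraries. On the low side P2 stood apart, with 18 of the 140 at least 2-fold below every other library, against 0 to 2 in the others. By any margin P1 was the highest library for 56 of the 140 and P2 the lowest for 53. These counts are in CPM, and P1 and P2 had the highest and lowest normalization factors (TMM) of the fit below, 1.30 and 0.775. Whether the counts hold after that scaling was not tested.

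The other miRNAs of that order were miR-323 (248 CPM against 12.6 to 47.1), miR-382 (62.6 against 5.72 to 15.2), miR-129 (120 against 4.64 to 38.5), miR-433 (45.4 against 4.64 to 15.998), miR-10a (18919 against 2493 to 8015), miR-379 (505 against 41.03 to 237) and miR-370 (78.7 against 6.03 to 36.8). They were chosen after their values were seen. Of the 10, miR-127, miR-323, miR-370, miR-379, miR-382 and miR-433 belong to the DLK1-DIO3 locus, a cluster expressed from the maternal chromosome. Of the 19 tested miRNAs of the DLK1-DIO3 list 12 were highest in C2, whereas 32 of all 198 tested miRNAs were.

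The mRNAs of neurons were also high in the library named C2. Of 21 such genes, chosen after the data were seen, 20 were highest in C2 and 1 (DBH) was at 0 in all 6 libraries. Their FPKM summed to 639 in C2 and to 9.59 (C1), 21.1 (C4), 10.8 (P1), 12.1 (P2) and 4.64 (P3) elsewhere. CHGB, a granule protein of neurons and endocrine cells, had 180 FPKM against 0 to 0.320, and STMN2 had 126 against 0.296 to 2.08. NEFL was high in C4 too, at 18.4 FPKM beside 22.5 in C2, and the part of these cells in any miRNA level was not tested. In tissue as a whole, more cells of a type and more RNA per cell cannot be told apart.

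**Figure D3:**
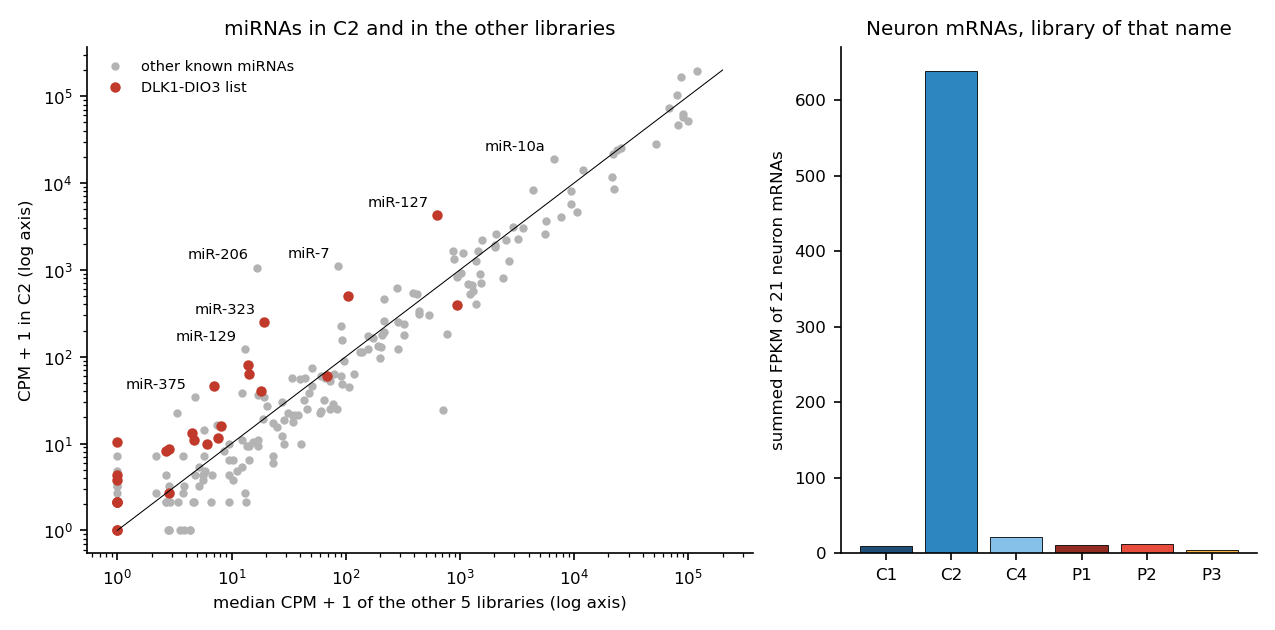
Left, CPM + 1 in C2 against the median CPM + 1 of the other 5 libraries (log axes, line of equality), with the DLK1-DIO3 list in red. Right, FPKM of 21 neuron mRNAs summed in each total RNA library, 639 in C2 and 4.64 to 21.1 in the others.

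The contrast between pacing and control, the question of the design, was fitted with edgeR's quasi-likelihood test on the 198 miRNAs with 10 or more tags summed over the libraries. No miRNA passed an adjusted p under 0.05 in either direction, which is 0% of those tested, and the smallest adjusted p was 0.143. At an unadjusted p under 0.05, 10 miRNAs were higher and 10 lower, and these 20 were also past the 2-fold change and p of 0.05 that the study set for its circRNAs. That is 5.05% of the tested miRNAs in each direction. The biological coefficient of variation was 0.562, and the median log2 fold change over all tested miRNAs was 0.05. The fit also scaled each library by a normalization factor (TMM), from 0.775 (P2) to 1.30 (P1). Ranges and overlaps of groups below are in CPM without these factors.

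The alternatives made up to 3 calls at an adjusted p under 0.05. The exact test of edgeR called miR-21 and miR-29b, DESeq2 called miR-29b as higher and miR-31 and miR-7 as lower, and edgeR scaled to total tags called miR-21. Without C1 the quasi-likelihood test called miR-184 as higher and miR-7 as lower. The control group was then C2 and C4 only, the libraries with the lowest miR-184 and the highest miR-7. limma called none.

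miR-29b and miR-21 led the miRNAs higher with pacing. miR-29b had 18.1 (C1), 8.86 (C2), 16.8 (C4), 72.4 (P1), 39.8 (P2) and 84.4 (P3) CPM, so the groups did not overlap. Its log2 fold change was 2.20 (SE 0.50, adjusted p = 0.143 by edgeR, 0.0425 to 0.994 over the alternatives). miR-21, which is enriched in fibroblasts of the failing heart, had 25341 (C1), 28323 (C2), 17918 (C4), 131731 (P1), 74107 (P2) and 52125 (P3) CPM. It was thus higher in 3 of 3 pacing libraries than in every control library, with a log2 fold change of 1.80 (SE 0.42, adjusted p = 0.143 by edgeR, 0.0425 to 0.994 over the alternatives). Its share of tags was 2.39% ± 0.54 (SD, n = 3) in the control group and 8.60% ± 4.1 (SD, n = 3) in the pacing group.

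The 3 members of the miR-29 seed family differed in their values. miR-29c had 13.3 (C1), 5.54 (C2), 10.1 (C4), 41.5 (P1), 10.9 (P2) and 42.7 (P3) CPM, with P2 inside the control range of CPM. Its log2 fold change, which also uses the TMM factors, was 1.71 (SE 0.61, adjusted p = 0.445 by edgeR). miR-29a, the most abundant of them, had 320 (C1), 175 (C2), 260 (C4), 773 (P1), 175 (P2) and 422 (P3) CPM, so P2 was as low as the lowest control. Its log2 fold change was 0.78 (SE 0.48, adjusted p = 0.575 by edgeR), and it was not past the thresholds. Since miR-29a and miR-29c differ at 1 base and the assignment of tags is not given, the division between them is uncertain.

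The other miRNAs higher at these thresholds were mostly of low level. miR-490, which lies inside CHRM2 (the muscarinic receptor gene of the heart), had 16.2 (C1), 8.31 (C2), 6.74 (C4), 88.2 (P1), 14.5 (P2) and 55.7 (P3) CPM and a log2 fold change of 2.27 (SE 0.62, adjusted p = 0.276). miR-204, which lies inside TRPM3, had 233 (C1), 251 (C2), 44.6 (C4), 286 (P1), 845 (P2) and 442 (P3) CPM and a log2 fold change of 1.74 (SE 0.76, adjusted p = 0.445). The groups of miR-204 did not overlap in CPM, yet C4 lay far below C1 and C2. Without C4 its log2 fold change was 1.19 (adjusted p = 0.566). P2 was far above the other pacing libraries, and without P2 the change was 0.94 and no longer past the thresholds. miR-146b, a miRNA of inflammatory signaling, had 217 (C1), 193 (C2), 121 (C4), 665 (P1), 752 (P2) and 142 (P3) CPM, with P3 inside the control range. Its log2 fold change of 1.62 (SE 0.65, adjusted p = 0.445) became 0.91 without P2 and was then not past the thresholds.

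miR-455, inside COL27A1, ranged from 3.88 to 10.1 CPM in the control group and from 7.24 to 43.8 CPM in the pacing group. miR-362 ranged from 4.98 to 21.9 and from 20.5 to 47.3 CPM, and miR-133b from 21.6 to 58.1 and from 52.6 to 125 CPM. All 3 overlapped between the groups in CPM. miR-301a rests on 4 tags in P1 and 7 in P3 with none in the control libraries, so no fold change is given for it.

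The miRNAs lower at these thresholds were for the most part high in C2 or C4. Of the 10, 7 had their highest level in C2 and 2 in C4, beside 32 and 27 of all 198 tested. miR-31 had 11.4 (C1), 1.66 (C2), 156 (C4), 1.75 (P1), 0 (P2) and 2.78 (P3) CPM, and its log2 fold change of -5.12 (SE 1.56, adjusted p = 0.361) became -2.04 (adjusted p = 0.577) without C4. miR-7, whose values are given above, had a log2 fold change of -2.93 (SE 0.91, adjusted p = 0.361) and of -1.605 (adjusted p = 0.584) without C2.

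miR-206 had a log2 fold change of -4.36 (SE 1.76, adjusted p = 0.445), and it turned to 0.35 (adjusted p = 0.987) without C2 and to 2.85 (adjusted p = 0.799) without both C2 and C4. miR-379 (-1.71, SE 0.69) and miR-375, a miRNA of pancreatic islets (-2.71, SE 1.19), both at an adjusted p of 0.445, went to -0.82 and -0.81 without C2. miR-137 was listed in C2 (11 tags) and C4 (4 tags) only, so no fold change is given for it.

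For 4 of the 10 lower miRNAs the groups did not overlap. miR-433 had 10.5 (C1), 45.4 (C2), 15.998 (C4), 5.26 (P1), 6.03 (P2) and 4.64 (P3) CPM, and a log2 fold change of -2.26 (SE 0.79, adjusted p = 0.445) that became -1.23 (adjusted p = 0.711) without C2. miR-335, inside the imprinted gene MEST, had 13.3 (C1), 15.5 (C2), 19.4 (C4), 4.67 (P1), 3.62 (P2) and 6.49 (P3) CPM and a log2 fold change of -1.70 (SE 0.65, adjusted p = 0.445). Its control libraries were close together, although the values rest on few tags (14 in C1 and 3 in P2).

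miR-193a had 84.8 (C1), 54.3 (C2), 74.1 (C4), 38.5 (P1), 22.9 (P2) and 36.2 (P3) CPM, and a log2 fold change of -1.11 (SE 0.44, adjusted p = 0.445). miR-486, which lies inside ANK1 and is abundant in red cells, had 1581 (C1), 1638 (C2), 1583 (C4), 1433 (P1), 355 (P2) and 381 (P3) CPM, and a log2 fold change of -1.30 (SE 0.50, adjusted p = 0.445). P1 was near the controls, so the difference of miR-486 lay in P2 and P3, and its log2 fold change was -2.00 without P1. miR-451, the other red cell miRNA, was lowest in the same libraries, with 1254 (C1), 527 (C2), 1236 (C4), 2075 (P1), 327 (P2) and 357 (P3) CPM, and its groups overlapped.

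**Figure D4:**
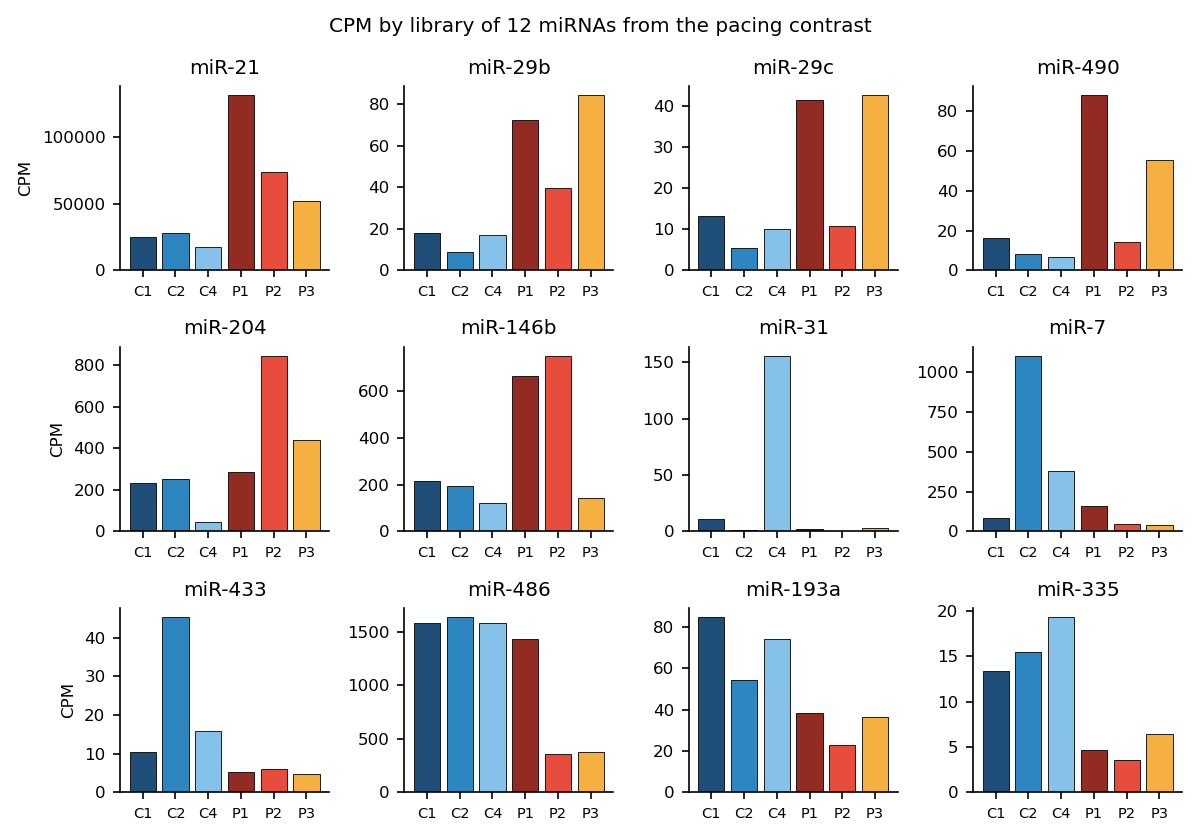
CPM by library for 12 miRNAs of the contrast, 1 bar per library with its own axis from 0. The bars of miR-21 and miR-29b are higher in all 3 pacing libraries, those of miR-31 and miR-7 are highest in C4 (156 CPM) and C2 (1101 CPM), and those of miR-486 are low in P2 and P3 only.

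Over all 198 tested miRNAs the pacing libraries all lay above the control libraries for 10 (5.05%) and all below for 8 (4.04%). A two-sided exact permutation test over 3 against 3 libraries gives p = 0.1 for any such separation. Separation alone therefore does not mark a miRNA as changed. It was counted in CPM only, without the TMM factors, so counts and members can differ on the scale of the fit. Among the higher ones were miR-21, miR-29b and miR-204, which also passed the thresholds, and miR-30a, miR-145, miR-155 and miR-350, which did not. miR-350 had 12.6 to 17.7 CPM in the control group and 27.8 to 40.8 CPM in the pacing group (adjusted p = 0.488), and miR-155, a miRNA of immune cells, had 35.3 to 44.9 and 50.1 to 90.5 CPM (adjusted p = 0.564). Among the lower ones were 2 of the most abundant, let-7f (101677 to 167667 CPM in the control group and 71241 to 87118 CPM in the pacing group, adjusted p = 0.564) and let-7c (12618 to 23134 and 9960 to 11962 CPM, adjusted p = 0.692).

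Without C4 the fit held 192 miRNAs, of which 9 (4.69%) were higher and 12 (6.25%) lower at the same thresholds, and again none passed an adjusted p under 0.05. Of the 10 higher miRNAs 6 passed again (miR-29b, miR-21, miR-490, miR-29c, miR-455 and miR-133b), and of the 10 lower ones 8 did, miR-31 and miR-137 being the exceptions. New on the higher side were miR-208a (log2 fold change 1.49, adjusted p = 0.437), miR-208b (3.28, adjusted p = 0.345) and miR-215, and on the lower side miR-122, miR-127, miR-129 and miR-323. All 4 new lower miRNAs were highest in C2, which then made up 1 of 2 control libraries. miR-21 had a log2 fold change of 1.48 (adjusted p = 0.365) and miR-29b of 2.19 (adjusted p = 0.345) without C4.

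**Figure D5:**
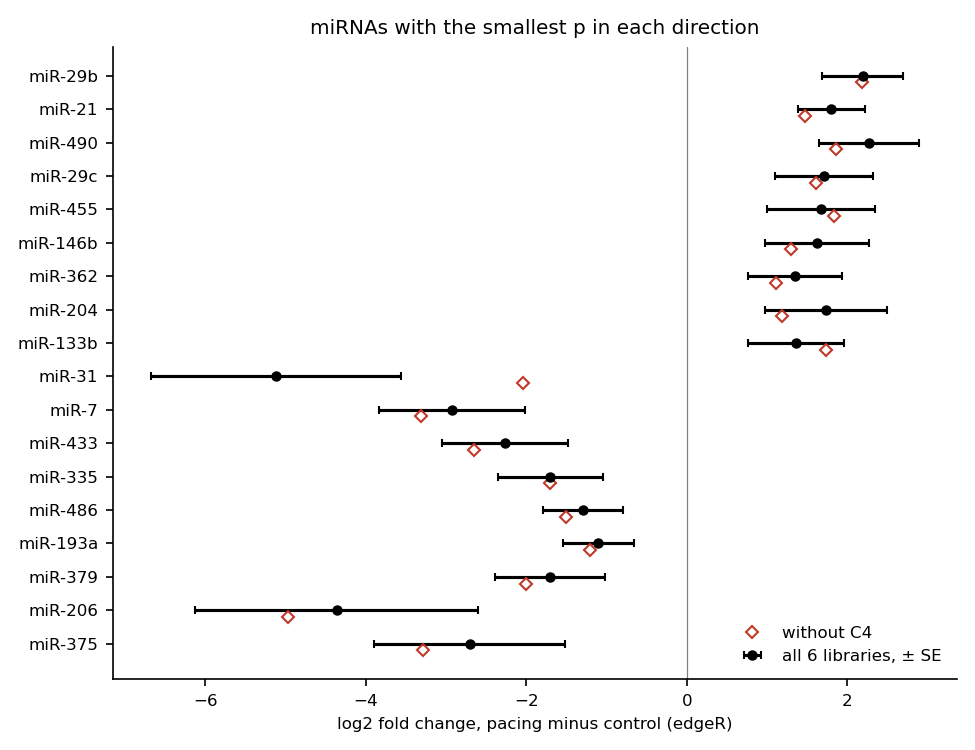
log2 fold change, pacing minus control, of the 18 miRNAs with a finite standard error among the 10 with the smallest p in each direction (black, ± SE, edgeR), and the value without C4 (red diamonds). The value of miR-31 moves from -5.12 to -2.04 without C4, and that of miR-29b from 2.20 to 2.19.

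Without C2 the fit held 189 miRNAs, and the count at the same thresholds fell on the lower side, to 3 miRNAs against 9 higher. Of the 10 lower miRNAs 2 (miR-31 and miR-193a) passed again. Of the 10 higher miRNAs 5 passed again without C2, and miR-29c, miR-455, miR-301a, miR-362 and miR-133b did not. Without both C2 and C4, a setting chosen after the data were seen, only C1 stood for the control group. Then 6 were higher and 4 lower, and of the miRNAs named above miR-29b (1.88) was again on the higher side and miR-31 (-2.82) and miR-486 (-1.28) on the lower side, while miR-206 had turned to the higher side (adjusted p = 0.799 for each). miR-208b (adjusted p = 0.365) and miR-215 (adjusted p = 0.799), higher without C4 too, were again higher, with no fold change given because C1 had no tag of either. miR-21 had 1.76 there and was not past the thresholds.

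Seed families were compared as shares of tags. The 224 miRNAs carried 173 seeds, of which 29 were shared by 80 miRNAs, and 11 seeds with a mean share of 1% or more held 93.4% of tags with 26 members. The let-7 family (seed GAGGUAG, 7 members) was the largest, with 25.6% (C1), 28.9% (C2), 25.2% (C4), 17.0% (P1), 21.9% (P2) and 16.9% (P3). Its groups did not overlap, with 26.5% ± 2.0 (SD, n = 3) in the control group and 18.6% ± 2.8 (SD, n = 3) in the pacing group (exact p = 0.1, adjusted p = 0.44 over 11 families). miR-21, alone in its seed, was the other family at the smallest p that 3 against 3 can give (exact p = 0.1, adjusted p = 0.44). Shares of a library add up to the whole, so those of let-7 and miR-21 do not vary independently. Of the 7 let-7 family members 5 had negative and 2 positive log2 fold changes, with a median of -0.15.

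The other 9 families overlapped between the groups. The miR-30 family (seed GUAAACA, 4 members) had 3.48% ± 0.41 and 4.41% ± 0.73, the miR-99 family 7.23% ± 1.8 and 9.75% ± 0.73, and miR-378, which lies inside the metabolic regulator gene PPARGC1B, 3.52% ± 1.1 and 1.98% ± 0.45 (SD, n = 3 each, exact p = 0.2 for each). The miR-148 family (14.1% and 11.1%), miR-143 (8.70% and 9.33%), miR-26 (8.58% and 9.02%), miR-27 (7.61% and 9.47%), miR-1 (7.84% and 8.89%) and miR-499 (3.25% and 2.35%) had exact p of 0.5 or more. miR-30e is listed with another seed (UUUCAGU) than miR-30a to miR-30d and so is not in that family here.

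Lists of miRNAs by cell type and locus, written with earlier results of these data known, are described by counts and medians beside the median log2 fold change of 0.05 over all tested miRNAs. The muscle list (8 tested) had a median of 0.31, with miR-133b past the thresholds as higher and miR-206 as lower. Over all tested, 5.05% passed in each direction. Of the muscle list 3 members were highest in C4, beside 27 of all 198 tested. miR-1 had 63000 (C1), 51771 (C2), 119385 (C4), 33289 (P1), 133255 (P2) and 100071 (P3) CPM, and a log2 fold change of 0.37 (SE 0.62, adjusted p = 0.805) that turned to -0.27 without P2. miR-133a (4667 to 13723 CPM) had 0.05 (SE 0.45, adjusted p = 0.945), which turned to -0.20 without C2. miR-499 had -0.52 (SE 0.64, adjusted p = 0.760) with all libraries and 0.53 without C4, and miR-208a had 2.25 (SE 1.10, adjusted p = 0.514). The change of miR-208a was 3.45 without C1 and 1.49 without C4, past the thresholds in both. For miR-208b the change of 0.25 (SE 1.18, adjusted p = 0.921) turned to -0.25 without C2. None of these 5 passed both thresholds in the fit of the contrast with all libraries, although the change of miR-208a was past 2-fold. With all libraries, miR-208a was past both with limma on log2 CPM (3.30) and without the filter on summed tags (2.29). It was not in the other alternatives that kept all libraries. With C4 counted as pacing, miR-499 (1.33) and miR-208b (3.88) were past both. Smooth muscle (miR-143 and miR-145) had a median of 0.35, endothelium (miR-126) 0.55 and red cells (2 tested) -0.79. Of the red cell miRNAs miR-486 was past the thresholds as lower, beside the same 5.05%.

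Among the lists tied to cardiac remodeling, 14 of 18 tested members of the fibrosis and remodelling list had positive changes (median 0.66), and 3 passed the thresholds as higher, namely miR-21, miR-29b and miR-29c. Over all 198 tested miRNAs 102 had positive and 96 negative changes, and 5.05% passed in each direction. The inflammation list (8 tested) had 6 positive changes, a median of 0.58 and 2 past the thresholds as higher, miR-21 and miR-146b, beside the same 102 of 198 and 5.05%. Its member miR-146a had 0.35 (SE 0.59, adjusted p = 0.805), which turned to -0.17 without P1. The list of miRNAs tied to ion channels in atrial fibrillation (12 tested) had 6 changes in each direction and a median of 0.02. Its member miR-31 was past the thresholds as lower (5.05% of all tested were), and 6 members were highest in C4, beside 27 of 198. The medians of miR-30 (5 tested), miR-26 (2) and miR-29 (3) were 0.42, 0.21 and 1.71.

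The DLK1-DIO3 list stood on the other side. Of 19 tested members 17 had negative changes, with a median of -1.13 and 2 (miR-379 and miR-433) past the thresholds as lower, beside 96 of 198 and 5.05% over all tested. Without C2 the median was -0.10, beside 0.13 for all tested miRNAs, and without C4 it was -1.44. The list of other organs (7 tested, median -0.81), with miR-7 and miR-375 past the thresholds as lower, had 3 members highest in C2. Over all 198 tested, 5.05% passed as lower and 32 were highest in C2.

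In the remaining lists 1 member passed, miR-146b as higher in leukocytes and platelets (8 tested, median -0.01), beside 5.05% over all tested. Positive medians were found for epithelium (0.86, 6 tested), fibroblasts (0.53, miR-214), miR-23, miR-24 and miR-27 (0.27, 5 tested), miR-10 and miR-99/100 (0.29, 5), miR-34 and p53 (0.42, 3), miR-221 and miR-222 (0.40, 2) and miR-132 and miR-212 (1.602, 1). Negative medians were found for let-7 and miR-98 (-0.15, 7), miR-17 to miR-92 and paralogs (-0.11, 11), miR-15 and miR-16 (-0.37, 7), miR-181 (-0.35, 3), miR-148 and miR-152 (-0.35, 3) and miR-378 and metabolism (-0.23, 5). The fibroblast list was written with 3 miRNAs, but miR-199 is listed without a letter and was not counted in it. miR-199 and miR-214 summed to 3635 (C4) to 7425 (C1) CPM, and both had positive changes. The hypoxia miRNA was not analysed here.

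Genomic neighbours were read from RefSeq's dog genes on another assembly than the one used by the authors, so no coordinates are given. All 224 miRNAs were matched by 254 of 255 precursors, and 109 lie inside a protein-coding gene. Within 10 kb of another, 106 miRNAs formed 39 groups, of which the largest held 20 miRNAs of the DLK1-DIO3 locus around miR-381 and miR-379. In that group 8 of 13 tested members were highest in C2, and in the group of miR-127, miR-433, miR-432 and miR-493 3 of 4 were. Over all 198 tested miRNAs 32 were.

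Neighbours did not always share a pattern. miR-206 and miR-133b lie beside each other, yet miR-206 was highest in C2 (1055 CPM) where miR-133b was lowest (21.6 CPM). miR-381, the most abundant of its group, had 470 (C1), 392.1 (C2), 1706 (C4), 1698 (P1), 573 (P2) and 951 (P3) CPM, so C2 was its lowest library. The group of miR-532, miR-502, miR-500, miR-362, miR-660 and miR-188 on CLCN5 was led by P1, with 1416 CPM summed against 416 to 585 elsewhere, and all 5 tested members had positive changes with a median of 0.50.

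Some members could not be told apart with certainty by their tags. The sequence of miR-107 is contained in that of miR-103 (means of 29.4 and 3286 CPM) and that of miR-133c in miR-133a (57.1 and 8849 CPM), and miR-23a and miR-23b differ at 1 base. Members of the let-7 family differ at 1 to 4 positions. How the authors divided tags among such pairs is not given in the sources used here, so the smaller value of each pair is uncertain.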

How the data were processed

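Small RNA libraries of 3 control and 3 pacing dogs were analysed. Raw tag counts per miRNA were deposited by the authors, who trimmed reads with cutadapt 1.9.3 according to the submitters' notes. How tags were assigned to miRNAs is not given in the sources used here, nor is a small RNA library protocol. The genome build was canFam3. The authors also deposited a normalized score, in which each library's counts carry 1 factor between 0.106 and 0.156, used in an alternative only. FPKM values of total RNA libraries with the same names, made by the authors (HISAT2, Cufflinks and Cuffdiff are listed), served for marker and host genes without a test, and their depth is unknown. Another 30 per-sample columns were not used.

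Each known miRNA was counted once and blanks were read as 0. Those with at least 10 tags in sum, 198 of 224, entered edgeR 4.0.16 in R 4.3.3 (quasi-likelihood test, TMM scaling, two-sided), with Benjamini-Hochberg adjustment over all of them. The thresholds of a 2-fold change and an unadjusted p of 0.05 were those the study states for circRNAs. DESeq2 1.42.0, limma 3.58.1, edgeR's exact test, other scalings and filters, and fits with libraries left out were the alternatives. Composition and seed families were compared by exact permutation tests (scipy 1.17.1). Printed CPM are scaled to known tags, whereas log2 fold changes also use the TMM factors. These were 1.19 (C1), 0.870 (C2), 0.989 (C4), 1.30 (P1), 0.775 (P2) and 0.965 (P3). Overlaps of groups were read on CPM without them. The code was tested on simulated data. No pairing or batch is stated, and tags carry no molecular identifiers.

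The miRNAs and lists were chosen with earlier results of these data known. Named were the 20 most abundant miRNAs, the 10 with the smallest p in each direction, the muscle miRNAs, up to 4 of each list, those farthest outside the other libraries in C4 and those with the lowest and highest CVs from 100 CPM. miRNAs that set C2 apart, those named for groups that do not overlap, new calls without C4, neighbours, similar sequences and the 21 neuron genes were chosen after their values were seen. A further gene is not reported here.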

Additional observations from a re-analysis of the deposited data

How the results depend on the processing

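Counts of calls depended on the processing, and the cause was not tested. At an adjusted p under 0.05, where the quasi-likelihood test called 0, DESeq2 called 1 higher and 2 lower miRNAs, the exact test 2 higher and scaling to total tags 1 higher. Leaving out 1 library gave 0 to 1 higher and 0 to 1 lower. At a 2-fold change and p of 0.05, with 10 and 10, the higher count was 4 with totals taken without the 2 most abundant miRNAs, 6 without C2 and C4 and 1 with limma on the normalized table. The lower count was 16 with DESeq2, 16 with RLE scaling, 4 without C2 and C4 (against 12 without C4 alone) and 1 with limma on the normalized table. Leaving out 1 library gave 4 to 10 higher and 3 to 19 lower, with 4 higher without P3, 5 higher without P1, 19 lower without C1, 3 lower without C2 and 4 lower without P3. With C4 counted as pacing, 9 miRNAs were higher and 7 lower at these thresholds. Of these, 3 and 3 were among the 10 and 10. No miRNA passed an adjusted p under 0.05 in that setting. The median log2 fold change of all tested miRNAs was 0.05 with TMM and -0.09 with RLE scaling.

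The log2 fold change of miR-31 was 2.83 with C4 counted as pacing. That of miR-206 was 2.85 without C2 and C4, and -5.46 to 0.35 when 1 library was left out. That of miR-208b was then -0.33 to 3.28, that of miR-208a 1.49 to 3.45, that of miR-204 0.94 to 2.28, that of miR-499 -0.96 to 0.53, that of miR-1 -0.27 to 0.75, that of miR-133a -0.20 to 0.42 and that of miR-146a -0.17 to 0.79. miR-499 had 1.33 with C4 counted as pacing and 0.14 without C2 and C4. On the normalized table limma gave -0.053 for miR-1 and -0.10 for miR-146a. For miR-133a DESeq2 gave -0.027, RLE scaling -0.027 and totals without the 2 most abundant -0.081.

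Pacing minus control, the share of the 10 most abundant was 1.27 percentage points with every row counted, and -1.89 to 0.905 when 1 library was left out. The share of the most abundant miRNA was then -3.39 to 0.455 points and the Shannon index -0.022 to 0.0912. Shares of seed families were then -5.59 to 0.344 points for miR-148a, -1.35 to 1.91 for miR-143, -0.961 to 2.16 for miR-26a, -1.17 to 3.83 for miR-1 and -2.10 to 0.888 for miR-499. No paired analysis was made, because the study divided its dogs into separate control and pacing groups and states no pairing. Depth limits the low miRNAs, since 1 tag was worth up to 1.21 CPM.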
